A study of Mus musculus with 14 samples.

Results

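The glucocorticoid receptors and a set of their target genes were followed in the brains of mice with and without cortistatin after focal ischemia. The set was chosen by gene symbol and held 8 of the 46904 genes listed, all of which passed the filter on low values. Nr3c1 encodes the glucocorticoid receptor (GR) and Nr3c2 the mineralocorticoid receptor (MR). The 6 targets were Fkbp5, Sgk1, Tsc22d3, Zbtb16, Per1 and Hif3a.

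RNA came from the contralateral (CL) and the ischemic (MCAO) hemisphere of Cort+/+ and Cort-/- mice on a C57BL/6J background, aged 12 weeks. The middle cerebral artery had been occluded for 20 min and brains were collected 48 h later, after isoflurane anaesthesia and meloxicam for analgesia, which all groups shared. Cort-/- mice lack the neuropeptide gene in every cell throughout life. Of the 14 libraries, 6 were from Cort+/+ mice (3 CL, and 3 MCAO with replicate numbers 2, 3 and 4) and 8 from Cort-/- mice (3 CL and 5 MCAO). The authors describe 5 MCAO replicates, and state that where replicates varied widely only those that grouped together entered a comparison. Why Cort+/+ MCAO replicates with other numbers are absent is not stated. The spread within groups rests on the libraries kept. Every CL hemisphere came from an operated mouse, so that a response to surgery or to the hormone that is shared by both hemispheres has no unoperated reference here. Expression was given as RPKM, reads scaled to the length of the gene and a size of the library, which allows levels to be compared between genes. That size was not the plain total of reads. It was below the total in every CL library, and above it in every MCAO library except replicate 4 of Cort+/+. In replicate 3 of Cort+/+ CL it was 37315406 against 39110996 reads. In replicate 1 of Cort-/- MCAO it was 43521577 against 41806749 reads. Libraries held between 25989673 and 43032293 reads, and Cort had 64 to 139 reads in each Cort+/+ library against 0 to 4 in each Cort-/- library.

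Corticosterone, the main glucocorticoid of mice, is released by the adrenal gland under stress and over the day, and enters the brain from the blood. GR and MR are cytosolic receptors that bind it, move to the nucleus and act on genes near glucocorticoid response elements. MR binds the hormone more tightly than GR, so that GR is thought to be filled mainly when the hormone is high. FKBP5 is a chaperone partner that lowers the affinity of GR for the hormone, in a negative feedback loop.

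The response element is an inverted repeat of short half-sites separated by 3 free bases, and it was searched as GNACANNNTGTNC, which reads the same on both strands. In the 5000 bases before the canonical start site (GRCm39, GENCODE M39), 2 of the 8 genes held a match, Sgk1 and Per1, compared with 1762 of 21748 protein-coding genes (8.1%). Both are written out because they are the members with a match, together with those of Map3k6 and Fam107a, which come up later as genes whose expression varied like that of the targets. Map3k6 and Fam107a were picked for that likeness from 6 genes with a match in a list of 20 described below. Each stretch is written 5′ to 3′ on the strand of its gene, with the match in capitals.
Sgk1: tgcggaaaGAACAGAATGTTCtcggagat
Per1: agccaagaGAACACGATGTTCcctagtgc
Map3k6: gaatagggGCACAGGCTGTTCcggaagtg
Fam107a: ggtggcttGGACATGGTGTTCtgagtctc
The stretch of Sgk1 lies at chr10:21869593-21869621, 958 bases before the start site. The stretch of Per1 lies at chr11:68987895-68987923, 1359 bases before it. Those of Map3k6 (chr4:132967940-132967968) and Fam107a (chr14:14159868-14159896) lie 142 and 112 bases before their start sites. Fkbp5, Tsc22d3, Zbtb16, Hif3a, Nr3c1 and Nr3c2 held no match of these letters in this window. A match is a description of the sequence, and binding was not measured.

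Nr3c1, on chromosome 18 of GRCm39 between positions 39543598 and 39652474, had a similar level in all groups. In Cort+/+ mice it was 13.9, 16.1 and 16.4 RPKM in CL and 15.2, 14.9 and 14.8 RPKM in MCAO hemispheres. In Cort-/- mice it was 16.5, 14.7 and 14.4 RPKM in CL and 14, 15.9, 16.3, 14.9 and 13.4 RPKM in MCAO hemispheres. All groups overlapped, and the level ranged only 1.23-fold over the 14 libraries. The group means ran from 15.4 ± 1.37 RPKM (SD, n = 3) in Cort+/+ CL through 15.2 ± 1.14 (n = 3) in Cort-/- CL and 14.9 ± 0.18 (n = 3) in Cort+/+ MCAO to 14.9 ± 1.26 (n = 5) in Cort-/- MCAO hemispheres, an order in which no neighbours differed beyond their spread. The difference of MCAO from CL over both genotypes was -0.03 on the log2 scale of RPKM + 0.1, with a 95% interval from -0.16 to 0.09 (limma, adjusted p = 0.865). Between genotypes it was -0.02, with an interval from -0.14 to 0.11 (limma, adjusted p = 1).

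Nr3c2, on chromosome 8 between positions 77625576 and 77971863, was lower in MCAO than in CL hemispheres. In Cort+/+ mice it was 9.01, 9.45 and 9.03 RPKM in CL and 8.63, 8.07 and 8.64 RPKM in MCAO hemispheres. In Cort-/- mice it was 10.2, 9.66 and 10 RPKM in CL and 7.92, 8.71, 8.88, 7.39 and 8.06 RPKM in MCAO hemispheres. Every MCAO library was below every CL library, in each genotype and over both. The share of all genes with such a separation was not counted. The level fell by 0.28 on the log2 scale in Cort-/- mice (SE 0.059, limma, adjusted p = 0.0332), to 0.824-fold of CL with a 95% interval from 0.754 to 0.899. In Cort+/+ mice the difference was -0.12 (SE 0.066, limma, adjusted p = 0.757), and the test of the difference between the genotypes gave -0.16 (SE 0.088, limma, unadjusted p = 0.085, adjusted p = 1). Over both genotypes it fell by 0.20 (SE 0.044, limma, adjusted p = 0.0265). Between genotypes, Cort-/- against Cort+/+, Nr3c2 differed by 0.12 in CL (SE 0.066, limma, unadjusted p = 0.0956). In MCAO it differed by -0.05 (SE 0.059, limma, unadjusted p = 0.445). Neither was called.

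Nr3c2 was the only one of the 8 genes called at an adjusted p under 0.05 in any of the 7 comparisons made. It was called among the 1.72% of 46102 genes called between the hemispheres of Cort-/- mice and the 3.43% called between hemispheres over both genotypes. No member was called between the hemispheres of Cort+/+ mice, where 0.0108% of genes were, between genotypes in CL (0.0152%), in MCAO (0.0174%) or over both hemispheres (0.0672%), or in the interaction of genotype and hemisphere (0.00217%). In these other comparisons 0 of the 8 had an unadjusted p under 0.05, and limma voom on the reads called 0 of the 8. The test used here called 5 genes between the hemispheres of Cort+/+ mice and 792 in Cort-/- mice. The authors, with a different test on counts, reported more genes in each genotype, so the few calls in Cort+/+ mice do not show a lack of response.

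The call of Nr3c2 depended on single libraries, while its direction did not. In Cort-/- mice the adjusted p rose above the threshold when replicate 1, 2 or 3 of Cort-/- CL (0.145, 0.0724 and 0.122), replicate 1, 4 or 5 of Cort-/- MCAO (0.0845, 0.0614 and 0.0735) or replicate 2 of Cort+/+ MCAO (0.0506) was left out. Over both genotypes the same happened without replicate 2 or 3 of Cort+/+ CL (0.0647 and 0.0544), replicate 2 or 3 of Cort+/+ MCAO (0.0539 and 0.0813) or replicate 1 or 3 of Cort-/- CL (0.073 and 0.0633). The difference lay between -0.31 and -0.24 in Cort-/- mice and between -0.21 and -0.18 over both genotypes whichever library was left out.

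Markers of several cell types moved between the hemispheres together with Nr3c2. All 5 markers of striatal spiny neurons fell in MCAO hemispheres over both genotypes, and their summed level was 179 to 224 RPKM in CL and 79.4 to 165 RPKM in MCAO libraries. All 5 microglial markers were higher in MCAO and 4 of them were called, where 3.43% of all genes were. Their sum was 87.3 to 103 RPKM in CL and 115 to 196 RPKM in MCAO libraries. The 5 markers of infiltrating myeloid cells were also all higher, with 3 called. Their sum was 11.8 to 24.6 RPKM in CL and 27.3 to 93.3 RPKM in MCAO libraries. Of the astrocyte markers 4 were higher, with 3 called, and 1 was lower. The general neuronal markers had no call by limma over both genotypes (3 of 5 at an unadjusted p under 0.05, and 2 called by limma voom), with sums of 1680 to 2072 RPKM in CL and 1492 to 1744 RPKM in MCAO libraries. All 5 markers of hippocampal neurons were lower (median -0.13), with 0 called and 1 at an unadjusted p under 0.05 (limma). Their sums overlapped, with 97.9 to 114 RPKM in CL and 77.0 to 108 RPKM in MCAO libraries. In whole hemispheres, fewer cells of a type and less RNA per cell cannot be told apart, and the part of these cells in the level of Nr3c2 was not tested.

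**Figure D1:**
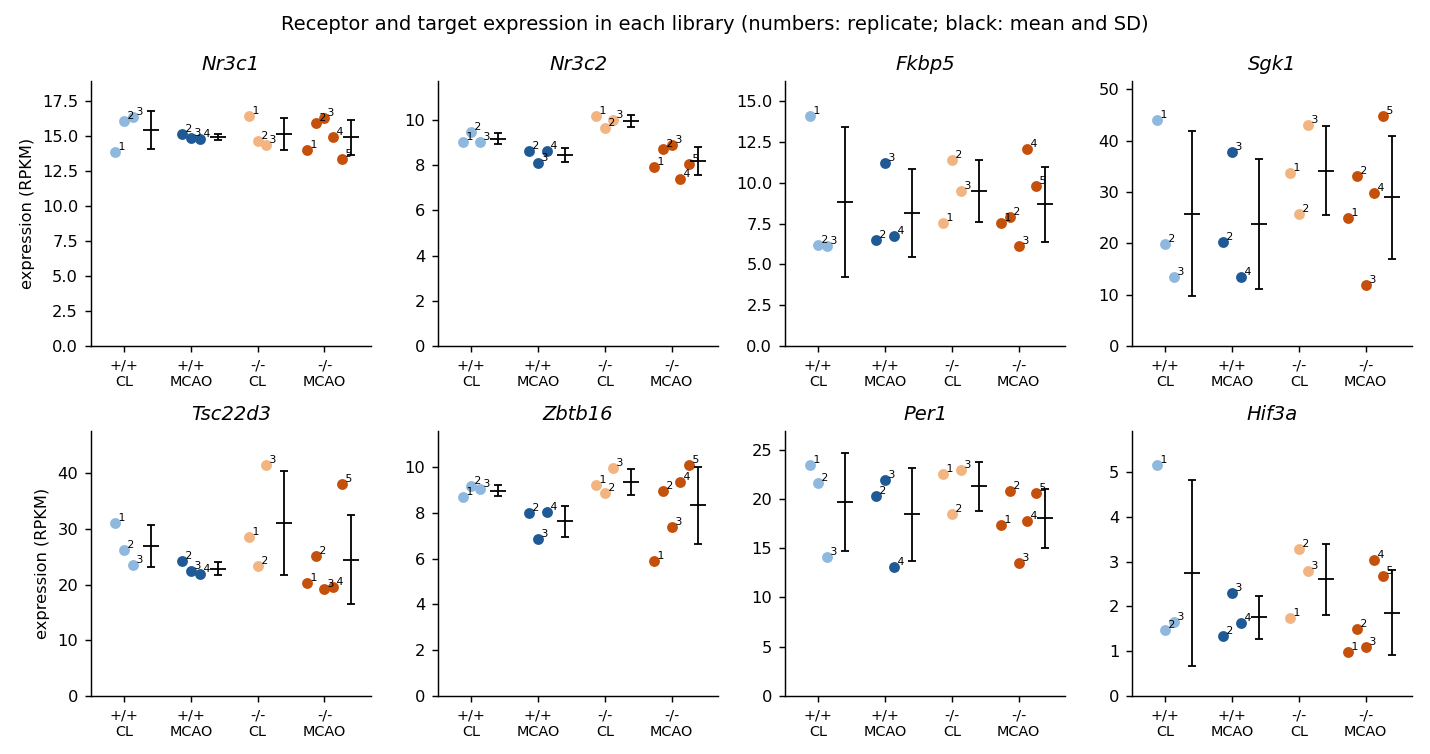
Expression in RPKM (vertical axes, each from 0) of the 2 receptors and the 6 targets in each of the 14 libraries (points, labelled with the replicate number), by genotype and hemisphere on the horizontal axes, with the mean and SD of each group in black. Nr3c2 was lower in every MCAO library than in every CL library, and Sgk1 ranged from 11.9 to 44.9 RPKM with all groups overlapping.

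The 6 targets varied far more between libraries of one group than the receptors did. Sgk1, a kinase that acts on ion channels and transporters, lies on chromosome 10 between positions 21758083 and 21875802. In Cort+/+ mice it was 43.9, 19.9 and 13.4 RPKM in CL and 20.2, 37.8 and 13.4 RPKM in MCAO hemispheres. In Cort-/- mice it was 33.7, 25.7 and 43.0 RPKM in CL and 25.0, 33.2, 11.9, 29.7 and 44.9 RPKM in MCAO hemispheres. Each group thus held libraries at both ends of a 3.77-fold range, except Cort-/- CL, whose lowest library was at 25.7 RPKM.

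Fkbp5, on chromosome 17 between positions 28618058 and 28737521, was 14.1, 6.20 and 6.16 RPKM in CL and 6.49, 11.2 and 6.72 RPKM in MCAO hemispheres of Cort+/+ mice. In Cort-/- mice it was 7.56, 11.4 and 9.49 RPKM in CL and 7.53, 7.93, 6.15, 12.1 and 9.78 RPKM in MCAO hemispheres. In each Cort+/+ group 1 library stood well above the others, replicate 1 in CL and replicate 3 in MCAO. Hif3a, an oxygen-regulated member of the HIF family that glucocorticoids also induce, lies on chromosome 7 between positions 16764918 and 16796352 and was the least expressed member. It was 5.16, 1.47 and 1.64 RPKM in CL and 1.35, 2.29 and 1.62 RPKM in MCAO hemispheres of Cort+/+ mice. In Cort-/- mice it was 1.73, 3.29 and 2.79 RPKM in CL and 0.971, 1.49, 1.09, 3.04 and 2.68 RPKM in MCAO hemispheres. The same Cort+/+ libraries were the highest of their groups as for Fkbp5, and in Cort-/- mice CL replicate 2 and MCAO replicate 4 led for both genes.

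Tsc22d3, which encodes the anti-inflammatory protein GILZ, lies on chromosome X between positions 139440091 and 139501408 and ranged from 19.2 to 41.5 RPKM. Its highest libraries were replicate 3 of Cort-/- CL (41.5 RPKM) and replicate 5 of Cort-/- MCAO (38.2 RPKM). Per1, a repressor of the circadian clock, lies on chromosome 11 between positions 68986035 and 69002300 and ranged from 13.1 to 23.4 RPKM. Its 3 lowest libraries were replicate 4 of Cort+/+ MCAO, replicate 3 of Cort-/- MCAO (13.5 RPKM) and replicate 3 of Cort+/+ CL (14.1 RPKM), which were also the 3 lowest for Sgk1. Zbtb16, a zinc finger transcription factor on chromosome 9 between positions 48563141 and 48748664, ranged from 5.92 to 10.1 RPKM. In Cort+/+ mice its CL libraries (8.71 to 9.20 RPKM) and MCAO libraries (6.86 to 8.07 RPKM) did not overlap, whereas in Cort-/- mice the MCAO libraries (5.92 to 10.1 RPKM) enclosed the CL libraries (8.87 to 9.98 RPKM). The Cort+/+ difference was -0.235 (SE 0.153, limma, unadjusted p = 0.149, adjusted p = 0.837). Groups this small can separate without a difference, and the share of all genes without overlap was not counted.

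No target was called in any comparison. Between hemispheres over both genotypes, all 6 were on the lower side in MCAO, with a median difference of -0.21 on the log2 scale, while 58.5% of the 15063 genes that averaged 1 RPKM or more were lower and their median was -0.03. The values were -0.49 for Hif3a (95% interval from -1.20 to 0.22), -0.29 for Tsc22d3 (from -0.65 to 0.06), -0.21 for Zbtb16 (from -0.43 to 0.01), -0.20 for Sgk1 (from -0.93 to 0.54), -0.17 for Per1 (from -0.50 to 0.15) and -0.09 for Fkbp5 (from -0.57 to 0.38), with adjusted p between 0.371 for Zbtb16 and 0.916 for Fkbp5 (limma). Without replicate 1 of Cort+/+ CL, the highest library of that group for Fkbp5, Sgk1 and Hif3a, the differences of Fkbp5 and Sgk1 became 0.10 and 0.04, that of Hif3a -0.21 and that of Per1 -0.10. Without replicate 3 of Cort-/- CL that of Tsc22d3 became -0.18, and without replicate 4 of Cort+/+ MCAO that of Per1 became -0.06 and that of Sgk1 -0.03. Over all libraries left out in turn, the values ran from -0.65 to -0.21 for Hif3a, from -0.38 to -0.18 for Tsc22d3, from -0.25 to -0.15 for Zbtb16, from -0.40 to 0.04 for Sgk1, from -0.29 to -0.06 for Per1 and from -0.22 to 0.10 for Fkbp5.

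Between genotypes over both hemispheres, all 6 targets were on the higher side in Cort-/- mice, with a median of 0.10. For the 15063 genes the median was 0.00, and 51.4% were lower. In CL alone all 6 targets were higher (median 0.16), whereas in MCAO 4 were higher and 2, Per1 and Hif3a, were lower (median 0.07). The targets varied together between libraries, as described below, so their shared directions are not 6 separate results, here or between hemispheres. The largest difference was that of Sgk1, 0.42 with an interval from -0.31 to 1.16, that is from 0.805-fold to 2.23-fold of Cort+/+ (limma, adjusted p = 1). Fkbp5 differed by 0.15 (from -0.32 to 0.62), Tsc22d3 by 0.11 (from -0.24 to 0.47), Zbtb16 by 0.08 (from -0.14 to 0.30), Per1 by 0.06 (from -0.26 to 0.39) and Hif3a by 0.04 (from -0.67 to 0.75). The directions of Tsc22d3, Per1 and Hif3a turned when single libraries were left out. The difference of Sgk1 ran from 0.23 without replicate 3 to 0.66 without replicate 1 of Cort+/+ CL, that of Fkbp5 from 0.05 to 0.35 without the same libraries, and that of Zbtb16 from 0.04 without replicate 3 of Cort+/+ MCAO or replicate 5 of Cort-/- MCAO to 0.14 without replicate 1 of Cort-/- MCAO. With this spread between libraries, a difference between genotypes of the size seen for Sgk1 could not be told from 0.

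**Figure D2:**
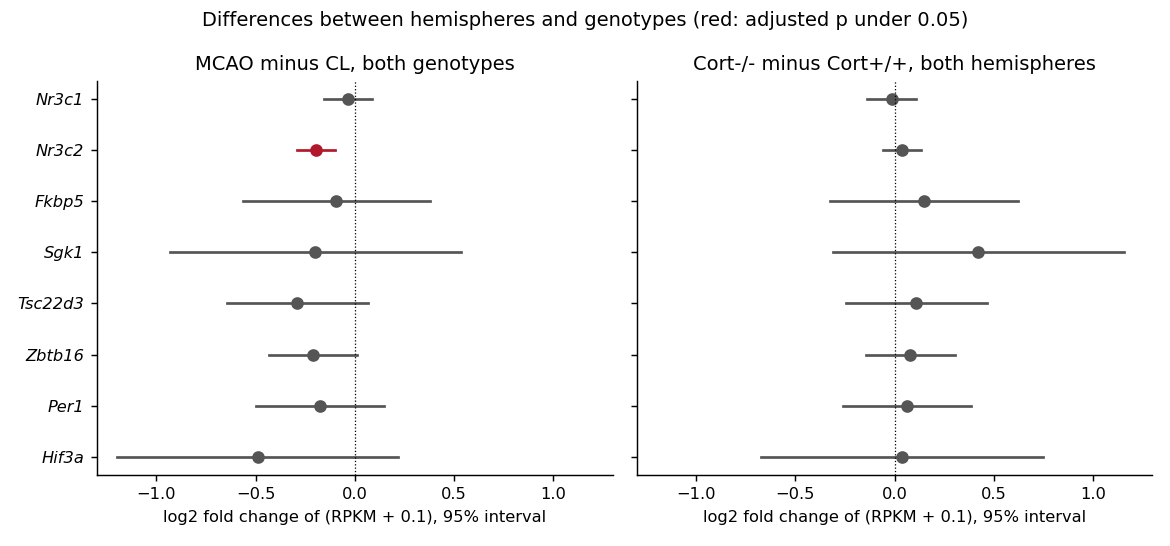
Log2 fold change of RPKM + 0.1 (horizontal axes) with its 95% interval for the receptors and targets, between hemispheres over both genotypes (left) and between genotypes over both hemispheres (right), from limma over 14 libraries. Only Nr3c2 between hemispheres is red (adjusted p under 0.05), and the intervals of Sgk1 and Hif3a are the widest.

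The spread between libraries of a group was itself measured, as the SD of log2(RPKM + 0.1) around the group means over the 14 libraries. It was 0.703 for Sgk1, 0.675 for Hif3a, 0.45 for Fkbp5, 0.338 for Tsc22d3, 0.307 for Per1 and 0.207 for Zbtb16. The median of the same 15063 genes was 0.115, and 98.2% of these genes varied less than Sgk1, 94.6% less than Fkbp5 and 79.5% less than Zbtb16. The receptors lay at or under that median, at 0.108 for Nr3c1 and 0.0758 for Nr3c2.

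The targets deviated from their group means in the same libraries. Over the 14 libraries, all 15 pairs of targets were positively correlated in these deviations, with Pearson's r from 0.122 to 0.934 and a median of 0.481. These are descriptions, since the points of a library share its scaling and its RNA, and hemispheres of 1 mouse may be among them. The closest pair was Fkbp5 and Hif3a (r = 0.934, Spearman's rho = 0.864, and r = 0.87 without the 2 libraries farthest from the median of Fkbp5). Sgk1 and Per1 followed (r = 0.886, rho = 0.846, and 0.857 without the 2 farthest for Sgk1). Fkbp5 and Sgk1 had r = 0.744 (rho = 0.763, and 0.708 without the 2 farthest). Zbtb16 was the loosest member, with r = 0.122 to Fkbp5, 0.177 to Per1 and 0.538 to Tsc22d3.

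Nr3c1 tended to deviate in the opposite direction. It had r = -0.663 with Fkbp5 (rho = -0.679), -0.654 with Hif3a (rho = -0.538) and -0.609 with Sgk1 (rho = -0.516), and Nr3c2 had r = -0.673 with Fkbp5 (rho = -0.732). Of the 12 pairs of a receptor and a target, 10 were negative, and 8 were when the 2 libraries farthest from the median of the receptor were left out, where Zbtb16 had r = 0.262 with Nr3c1 and 0.504 with Nr3c2. The relation was weaker without the 2 libraries farthest from the median of Nr3c1, replicate 1 of Cort+/+ CL and replicate 5 of Cort-/- MCAO, where r was -0.518 with Fkbp5, -0.405 with Hif3a and -0.358 with Sgk1. In both of these libraries Nr3c1 was the lowest of its group, at 13.9 and 13.4 RPKM.

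To place each library, the deviations of the 6 targets were divided by their SD and averaged. The highest libraries were replicate 5 of Cort-/- MCAO (1.11 SD), replicate 1 of Cort+/+ CL (1.01), replicate 3 of Cort+/+ MCAO (0.495), replicate 3 of Cort-/- CL (0.492) and replicate 4 of Cort-/- MCAO (0.448). The lowest were replicate 3 of Cort-/- MCAO (-1.07), replicate 3 of Cort+/+ CL (-0.772), replicate 1 of Cort-/- MCAO (-0.762) and replicate 4 of Cort+/+ MCAO (-0.476). Because deviations are taken from the mean of each group, every group holds libraries on both sides of 0. The same replicate number did not mark them in both hemispheres: replicate 3 of Cort-/- mice was at 0.492 in CL and -1.07 in MCAO, and replicate 3 of Cort+/+ mice at -0.772 in CL and 0.495 in MCAO. Labels do not say whether equal numbers mean the same mouse.

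A list of 20 other genes that glucocorticoids induce in many tissues, none of them a member, deviated in the same libraries. This list was written by hand with earlier results of these data known. Its likeness to the targets is thus a description and no independent test. All 20 had a positive r with the mean of the 6 targets, with a median of 0.785, and 14 had r of at least 0.7, that is 70% of the list against 2.04% of the 15055 such genes other than members (median r 0.02). The highest were Klf15, a transcription factor of the fasting and steroid response (r = 0.951), the kinase gene Map3k6 (0.934), Fam107a (0.925), Pdk4, an inhibitor of pyruvate oxidation (0.915), and Arrdc2 (0.895). Ddit4, an inhibitor of mTOR signalling, followed at 0.885, Angptl4, an inhibitor of lipoprotein lipase, at 0.882 and Nfkbia, the inhibitor of NF-κB, at 0.88. The lowest were Anxa1 (0.141) and Dusp1 (0.459). In the sequence window before the start site, 6 of the 20 held a match of the response element (30%), against the 8.1% of protein-coding genes as a whole. Besides Map3k6 and Fam107a these were Bcl6 (r = 0.703), Rasd1 (0.602), Gpd1 (0.591) and Dusp1, whereas Klf15 and Pdk4 held none. In replicate 1 of Cort+/+ CL 19 of the 20 genes were above their group mean, in replicate 3 of Cort+/+ MCAO all 20 and in replicate 5 of Cort-/- MCAO 18, compared with 0 in replicate 3 of Cort+/+ CL, 1 in replicate 4 of Cort+/+ MCAO and 2 in replicate 3 of Cort-/- MCAO. The mean deviation of the list and that of the 6 targets had r = 0.926 over the 14 libraries (rho = 0.899, and 0.896 without the 2 farthest).

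**Figure D3:**
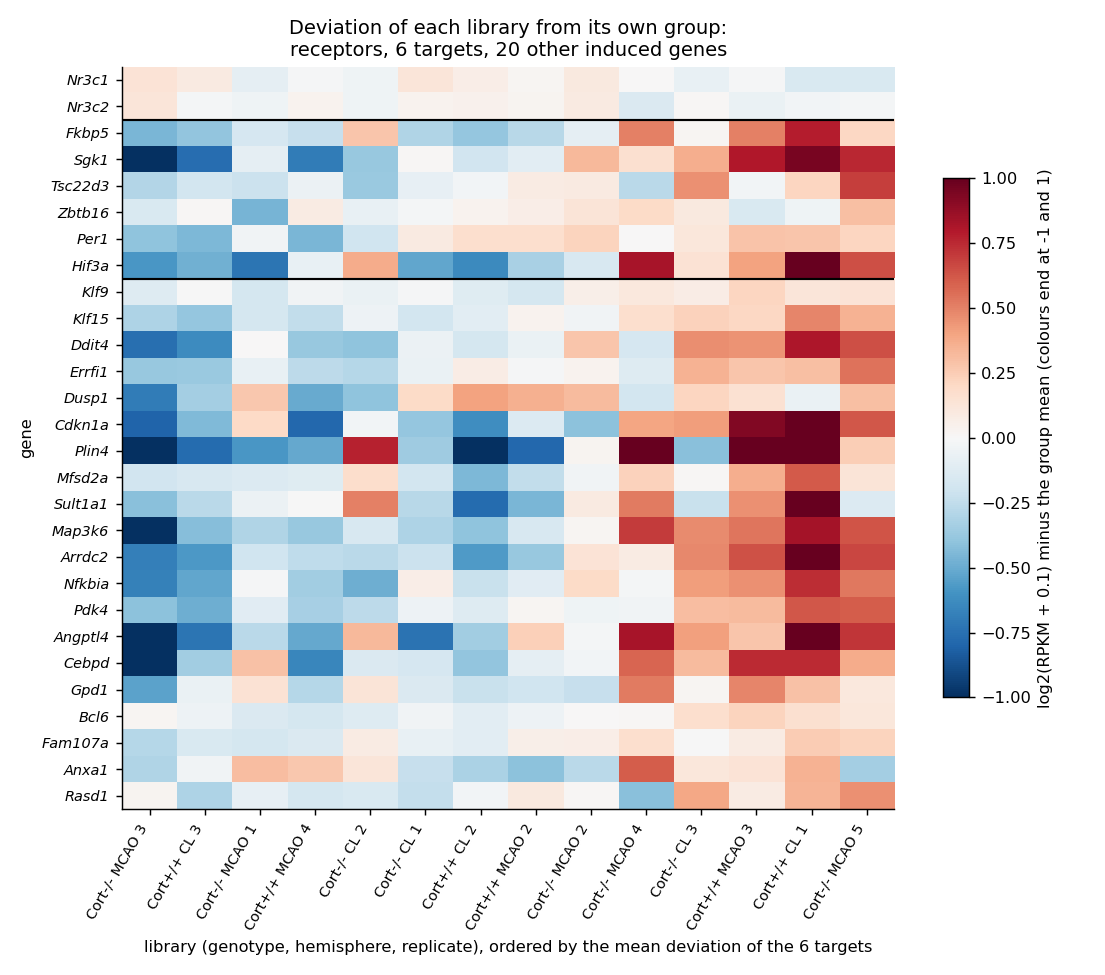
Difference of log2(RPKM + 0.1) from the mean of its own group (colour, ending at -1 and 1) for the receptors, the 6 targets and the 20 other induced genes (vertical axis) in each library (horizontal axis), with libraries ordered by the mean deviation of the 6 targets. The targets and most of the other induced genes go from low on the left (Cort-/- MCAO replicate 3) to high on the right (Cort-/- MCAO replicate 5), whereas the receptors differ little.

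**Figure D4:**
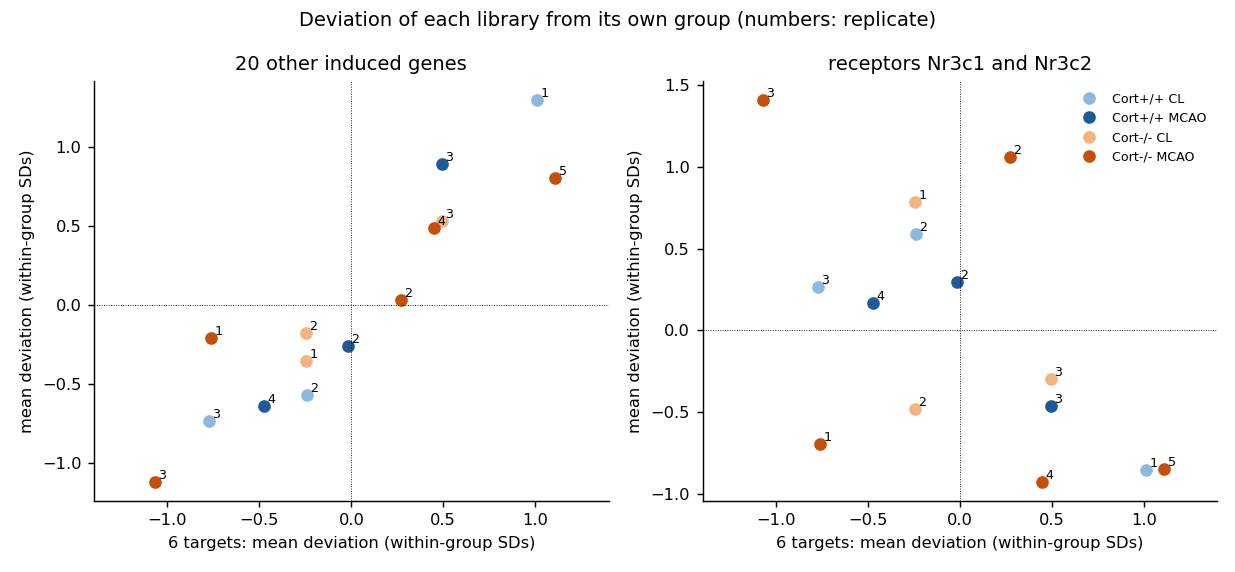
Mean deviation of the 20 other induced genes (left) and of the receptors (right) against that of the 6 targets, each in within-group SDs, with 1 point per library coloured by group and labelled with the replicate number. The left panel rises with r = 0.926 over 14 libraries, and in the right panel the receptors are at -0.855 and -0.847 SD in the 2 libraries with the highest targets.

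The 20 genes had no call in any of the 7 comparisons, with unadjusted p under 0.05 for 1 of them between the hemispheres of Cort+/+ mice, for 5 in Cort-/- mice and for 5 over both genotypes, where limma voom called 1. Their median difference was -0.10 between hemispheres over both genotypes and 0.14 between genotypes over both hemispheres, where 16 of the 20 were on the higher side in Cort-/- mice. The genes of smallest p were Klf9, with -0.26 in MCAO against CL (SE 0.071, limma, adjusted p = 0.0735), and Fam107a, with -0.30 (SE 0.091, limma, adjusted p = 0.0999).

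The 10 genes whose deviations were most like the mean of the 6 targets, among all that averaged 1 RPKM or more, were Klf13 (r = 0.981), Slc2a1 (0.954), Klf15 (0.951), Gm19439 (0.946), Morc2a (0.937), Aff1 (0.935), Map3k6 (0.934), Fam107a (0.925), Pdk4 (0.915) and F3 (0.914). Klf13, a Krüppel-like transcription factor, ranged from 24.8 to 35.0 RPKM and kept r of at least 0.972 whichever library was left out. Slc2a1, the glucose transporter of the blood-brain barrier, ranged from 25.5 to 43.1 RPKM. Of these 10 genes, 4 belong to the list of 20 induced genes, and between 6 and 9 of them stayed among the 10 when 1 library was left out, with 6 without replicate 1 of Cort-/- MCAO. Klf13, Slc2a1, Gm19439, Morc2a and Aff1 stayed in all 14 such runs and Klf15 and Map3k6 in 13, whereas Fam107a stayed in 8, F3 in 3 and Pdk4 in 2.

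Other lists did not vary with the targets to this extent. No gene among 12 of the circadian clock had r of at least 0.7, with a median of 0.175 and values from -0.757 for Dbp to 0.644 for Bmal1. The 10 immediate early genes had a median of 0.205, and the 11 measured at this level among genes of hormone metabolism, receptor chaperones and cofactors a median of -0.05. Of 12 hypoxia-inducible factors and targets only Slc2a1 and Adm (0.701) reached 0.7, and the median was -0.01. Cell type markers had medians of -0.441 for neurons, -0.131 for striatal spiny neurons, 0.37 for astrocytes and 0.431 for microglia. Depth had r = 0.403 with the mean of the 6 targets (rho = 0.226), and -0.143 without the 2 libraries farthest in depth. The lowest library, replicate 3 of Cort-/- MCAO, was also the one with the fewest reads, 25989673. The part of cell composition and depth in this variation was not tested.

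The rest of the pathway showed few calls between groups. Hormone metabolism, receptor chaperones and cofactors had none of 12 called by limma in any comparison, with at most 2 at an unadjusted p under 0.05, and limma voom called 2 between the hemispheres of Cort-/- mice and 2 over both genotypes. The coactivator Ncoa1 had the smallest p, with -0.13 between hemispheres (limma, adjusted p = 0.147). Among 9 hypothalamic and pituitary stress peptides and receptors none was called by limma or limma voom, with unadjusted p of 0.0241 for the interaction of Crhr2 and 0.0387 for Pomc between genotypes in MCAO (limma, adjusted p = 1 for both). Of 10 immediate early genes 0 were called by limma or limma voom and 0 had an unadjusted p under 0.05, and Ier2 and Npas4 had the smallest p, both between genotypes (limma, unadjusted p = 0.0845 and 0.101).

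In the circadian clock, of which Per1 is a part, all 12 other genes were on the lower side in MCAO over both genotypes, with a median of -0.14, and 1 passed the test. Among all genes 3.43% were called in this comparison, and of the 15063 genes that averaged 1 RPKM or more 58.5% were lower, with a median of -0.03. It was Hlf, a transcription factor under clock control, which fell by 0.35 (SE 0.047, limma, adjusted p = 0.00212). Of 12 hypoxia-inducible factors and targets, to which Hif3a is related, 8 were on the higher and 4 on the lower side, and 1 passed the test, against the same shares over all genes. It was Ldha, the lactate dehydrogenase subunit, which rose by 0.24 (SE 0.042, limma, adjusted p = 0.00755). Hif3a itself was on the lower side in the same comparison.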

How the data were processed

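The authors aligned the reads to GRCm39 and counted them on genes with the reanalyzerGSE pipeline, tested genes with edgeR, and deposited 1 table of RPKM with a column per library (14, not pooled). The kit marks the strand, but the setting used for counting is not given in the sources used here, so that antisense genes that overlap members may share their reads. The deposited RPKM gave 100% whole reads (495656 values above 0, tolerance 0.01 reads), from which depth was taken. The main test was set for the deposited RPKM, and the authors' count test was not repeated on the recovered reads. Instead log2(RPKM + 0.1) of the 46102 genes above 0 in at least 2 libraries was fitted with limma 3.58.1 (R 4.3.3) in 1 model of the 4 groups, with variances moderated along a trend, and p-values were adjusted over all genes by Benjamini-Hochberg with a threshold of 0.05. Alternatives were limma voom on the reads, other pseudocounts, filters and scalings, library weights, a replicate block, only the groups compared, and leaving out each library. Libraries of 1 group differed by more than sampling noise, with a chi-square per degree of freedom of 5.82 to 26.3 over 19 pairs, so that none was counted as a copy. Replicates are described as independent, but labels do not tie hemispheres to mice, and p-values treat all libraries as separate.

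Deviations are log2(RPKM + 0.1) minus the mean of the group, and their SD has the libraries minus the groups as degrees of freedom. Positions come from GENCODE M39 on GRCm39, and sequences were read from that genome. The members and lists were chosen with earlier results of these data known. Named were all members, Cort, the genes of each list with an adjusted p under 0.05 in any comparison (at most 6), or else the 2 of smallest p, and the 10 genes most like the targets. The values of 1 gene that this rule names are not reported here. The lists of markers of hippocampal neurons, oligodendrocytes, choroid plexus and pituitary had no gene called by limma in any comparison (at most 3 of 5 at an unadjusted p under 0.05), and that of endothelial cells had 1 over both genotypes. The fit and the measure of likeness were tested on simulated data. Python 3.11.15 with numpy 2.4.6, pandas 2.3.3, scipy 1.17.1 and matplotlib 3.10.9 did the rest.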

Additional observations from a re-analysis of the deposited data

Results flagged for a closer look

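In the group of 5 Cort-/- MCAO libraries, the only group large enough for Dixon's test of a library apart from the rest, none of the 8 receptors and targets had such a library. Among the 55 values examined there was 1, Lyz2, a marker of infiltrating myeloid cells, at 46.7 RPKM in replicate 1 against 14.8 to 22.8 RPKM in the other Cort-/- MCAO libraries (gap over range 0.749, with a critical value of 0.71). Chance alone marks about 1 in 20 groups. In that library the mean deviation of the 6 targets was -0.762 SD.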

How the results depend on the processing

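The number of members called was recomputed under 179 alternatives over the 7 comparisons, and 160 left it at its value. Every change fell in a comparison with a call. There 10 of 26 alternatives lost it between the hemispheres of Cort-/- mice, and 9 of 25 over both genotypes. All other comparisons had 0 members called to begin with and kept 0. Between the hemispheres of Cort-/- mice it went from 1 to 0 with TPM, with only the groups compared and with the replicate block, and lay between 0 and 1 when single libraries were left out. Over both genotypes it went from 1 to 0 with TPM, with the replicate block and with limma voom on the reads, and again lay between 0 and 1 without single libraries. The call lost was that of Nr3c2 each time, whose adjusted p ranged from 0.014 to 0.411 in Cort-/- mice and from 0.0121 to 0.234 over both genotypes, and whose difference with the replicate block was -0.225 and -0.185 (limma, adjusted p = 0.411 and 0.234). Leaving out libraries or groups leaves fewer samples, whereas TPM and limma voom used all libraries. The causes of the lost calls were not tested. Differences near 0 changed sign. Nr3c1 was at 0.013 between hemispheres with limma voom and at 0.043 (TPM) and 0.025 (replicate block) between genotypes, and Nr3c2 was at 0.01 between genotypes in MCAO with TPM. With the replicate block Fkbp5 and Sgk1 were at 0.041 and 0.059 between hemispheres. Without single libraries, the hemisphere difference ranged from -0.22 to 0.103 for Fkbp5 and from -0.399 to 0.038 for Sgk1, and the genotype difference from -0.053 to 0.007 for Nr3c1, from -0.004 to 0.204 for Tsc22d3, from -0.052 to 0.133 for Per1 and from -0.12 to 0.316 for Hif3a. Of the 10 genes most like the targets, 6 to 9 stayed without single libraries (6 without replicate 1 of Cort-/- MCAO) and 10 with a pseudocount of 1. Rescaling to TPM moved the median of the genes that averaged 1 RPKM or more by at most 0.06. The block is shown because CL and MCAO libraries share numbers, but of 5 same-numbered pairs only 1 had correlated deviations over 0.1 (r from -0.239 to 0.316), so equal numbers were not taken as pairs. Libraries without a same-numbered partner added nothing to the differences with the replicate block. For differences between genotypes, that block joined equal numbers of both genotypes within a hemisphere, which are different mice. Differently numbered pairs reached r = 0.404 (replicate 3 of Cort-/- CL with replicate 5 of Cort-/- MCAO). Pairs of different genotype, which cannot be 1 mouse, reached 0.403 (replicate 4 of Cort+/+ MCAO with replicate 3 of Cort-/- MCAO). These values therefore cannot tell which hemispheres, if any, came from 1 mouse. Groups held 3 to 5 libraries, the SD between libraries of a group reached 0.703 on the log2 scale (Sgk1), and members had at least 187 reads in each library. The part of depth in that spread was not tested.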
